A study of Homo sapiens with 2 samples.

Results

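The clustered protocadherin genes lie in a row on chromosome 5q31, and their chromatin accessibility was examined in CAMA-1, an established cell line from luminal breast cancer. The members were the 53 protein-coding genes of GENCODE release 44, of 20033 in all, whose symbols begin with PCDHA, PCDHB or PCDHG followed by a number or a further letter and which lie between 140.7 and 141.6 Mb of chromosome 5 (hg38). They comprised 15 alpha genes, 16 beta genes and 22 gamma genes. The rule used symbols and positions only, but it was set with earlier results of these data known. Open chromatin was mapped by ATAC-seq, in which the Tn5 transposase cuts accessible DNA and inserts sequencing adapters. The 2 samples were biological replicates of 50000 untreated CAMA-1 cells each, grown as adherent cultures, and the peaks of each replicate were called on their own. With a single condition and a single cell line there was no group to compare, so no test over samples was possible, and the values are given per replicate.

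Clustered protocadherins are cadherin-like adhesion proteins of the cell surface that bind copies of themselves on neighboring cells. Neurons are known to switch on small, varying sets of them, which lets a neuron tell its own branches from those of other cells. In the alpha and gamma clusters, each gene consists of a large variable exon with its own promoter, which is spliced to constant exons shared by the whole cluster, whereas the beta genes are made of a single variable exon. Most of these promoters carry a short conserved element known as the conserved sequence element or CGCT box. The DNA-binding protein CTCF and the cohesin ring are known to bring alpha promoters to distant enhancers, and the alpha variable exons carry a further CTCF site. The last genes of the alpha and gamma clusters, named C-type, are regulated differently from the others and are expressed more evenly among neurons.

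The CGCT boxes of genes with and without a peak are shown first, because the letters occurred in both. Each line gives 30 bases of the gene strand, which is the plus strand for all members, from hg38, and the capitals mark the letters CGCT. For the alpha genes PCDHA1 and PCDHA3, which had no peak, and PCDHA4 and PCDHA12, which had one, the boxes lie at chr5:140786086-140786115, chr5:140800994-140801023, chr5:140806979-140807008 and chr5:140875244-140875273.
PCDHA1: attggccacatgatgtCGCTgtacaccaca
PCDHA3: tttagccacatgatgtCGCTgtccaccaca
PCDHA4: tggagccacatgatgtCGCTctttaccaca
PCDHA12: atcagtcacatgatgtCGCTctacactcag

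For the beta genes PCDHB8 and PCDHB13, with a peak, and for PCDHB15 and PCDHB1, the 2 beta genes with none, the boxes lie at chr5:141177777-141177806, chr5:141213865-141213894, chr5:141245314-141245343 and chr5:141051274-141051303. Of these 4, the box of PCDHB1 was least like those of its cluster.
PCDHB8: tgaggacccgtggtggCGCTgcaggataag
PCDHB13: tgaggacgcgtggtggCGCTgcaggataag
PCDHB15: agacaacgcatggtggCGCTgcaggctaag
PCDHB1: gactggggagttgagtCGCTcaatgcaaat

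For the gamma genes PCDHGC3 and PCDHGB1, with a peak, and PCDHGA4 and PCDHGB6, with none, the boxes lie at chr5:141475880-141475909, chr5:141350025-141350054, chr5:141354960-141354989 and chr5:141407924-141407953.
PCDHGC3: ctgggactctgtgtgcCGCTgtcggccaat
PCDHGB1: gacaacctctgggcgcCGCTgtcgaccaaa
PCDHGA4: ttaagactctgggtgtCGCTgttcaccaat
PCDHGB6: cggagcctctgggcgcCGCTgtcggccagt

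Across the genome, 245736 peaks were listed for replicate 1 and 259745 for replicate 2. The lists hold no read totals, so the depth of each library was not known from them. The strength of a peak is its fold enrichment, the deposited ratio of its highest read stack plus 1 to the genome-wide background plus 1. The background was 3.35 stacked reads in replicate 1 and 3.52 in replicate 2, and the number of stacked reads at a peak is given as its height. Markers were set beside the labelled identity: all 8 luminal breast markers, among them ESR1 and GATA3, had a peak at the transcription start site (TSS) in both replicates. Over all protein-coding genes the share was 73.5%. Of the other markers, 1 of 3 basal, 3 of 6 neuronal, 1 of 4 blood and 2 of 3 stromal genes had one. The blood gene was CD14 and the stromal genes were COL1A1 and PDGFRA. PTPRC and CD3E, which define leukocytes and T cells, had none. With so few genes per list, these counts alone do not establish the identity.

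Most clustered protocadherin promoters were open in CAMA-1, but weakly. A member is called open where a peak lay within 1 kb of its TSS in both replicates, and this held for 39 of the 53 members, or 73.6% (95% Wilson interval 60.4 to 83.6), beside 73.5% of all protein-coding genes. The share was thus near the background when all peaks were counted, but with only the 50000 strongest peaks of each replicate it was 15 of 53, or 28.3%, beside 55.4% of all protein-coding genes. The median fold enrichment of these peaks was 20.7 in replicate 1 and 19.5 in replicate 2 (20.1 ± 0.883, SD, n = 2), against 48.6 and 50.9 over all protein-coding genes with a TSS peak. The members' peaks were also narrow, with a median width of 340 and 342 bp where the peaks of all genes had 1064 and 1073 bp. The 96 other protein-coding genes within 5 Mb on either side showed neither feature: 87 of them had a TSS peak in both replicates, with a median fold enrichment of 82.8 and 82.7 and a median width of 1283 and 1310 bp. These genes share the chromosome arm with the members.

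Each of the 39 members had a peak of its own, since their strongest TSS peaks were 39 distinct peaks in both replicates. The replicates gave nearly the same strengths. The log2 ratio of fold enrichment, replicate 2 over replicate 1, had a median of 0.0020 and ranged from -0.43 for PCDHGA2 to 0.74 for PCDHGB5, and Spearman's rho across the 39 members was 0.978. Of the remaining members, 5 had a peak in 1 replicate and 9 in neither. Only 3 members exceeded a fold enrichment of 50 in both replicates, PCDHAC1, PCDHB8 and PCDHGC3, and the same 3 exceeded the median of 50.0 over the mean folds of all genes.

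**Figure D1:**
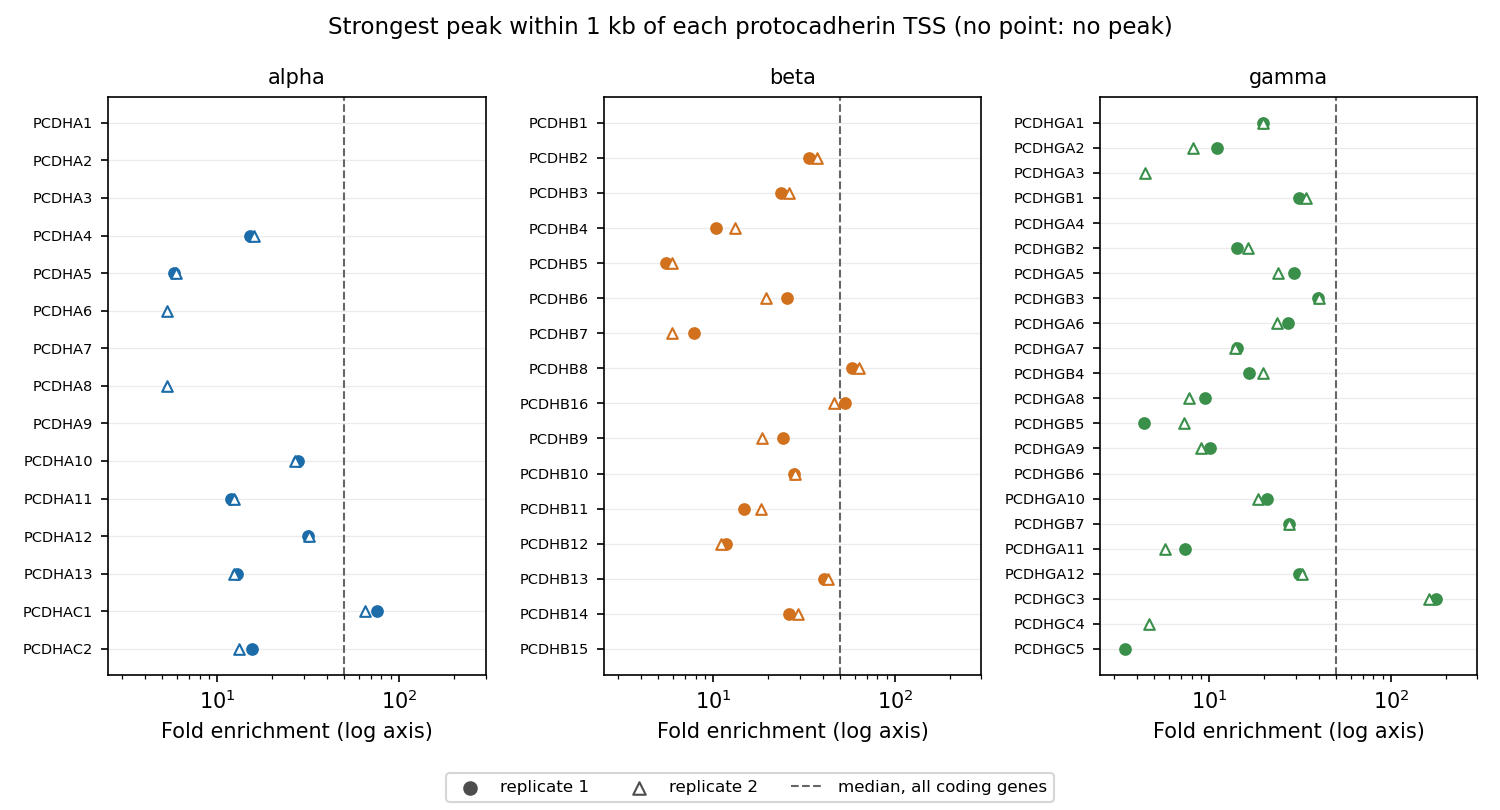
Fold enrichment (log axis) of the strongest peak within 1 kb of each TSS, for alpha, beta and gamma genes in chromosomal order, with replicate 1 as filled circles and replicate 2 as open triangles; genes without a point had no peak, and the dashed line is the mean of the replicate medians over all protein-coding genes, 49.7. The circle and triangle of a gene lie close together, and PCDHAC1, PCDHB8 and PCDHGC3 stand to the right of the line in both replicates.

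The share of genes called open, with a peak within 1 kb of the TSS, is given by cluster, beside the 73.5% of all protein-coding genes. In the beta cluster, 14 of 16 genes had a peak in both replicates (87.5%, 95% Wilson interval 64.0 to 96.5), in the gamma cluster 17 of 22 (77.3%, 56.6 to 89.9) and in the alpha cluster 8 of 15 (53.3%, 30.1 to 75.2). At this distance of 1 kb, all 3 intervals overlap and contain the share of all genes. With peaks within 100 bp of the TSS, 6 of 15 alpha genes (40%) had one in both replicates, beside 66.6% of all protein-coding genes. The beta and gamma counts stayed at 14 of 16 and 17 of 22. Because genes of a cluster are neighbors and not replicates, the difference was not tested at either distance. The medians given next are those within 1 kb. Median fold enrichments were 15.4 and 14.6 in alpha (15.0 ± 0.581, SD, n = 2), 24.9 and 22.9 in beta (23.9 ± 1.39) and 19.8 and 19.7 in gamma (19.7 ± 0.0761). The order of beta, gamma and alpha was the same in both replicates, but it depended on the TSS used: with peaks within 100 bp of the TSS the mean of the alpha medians was 21.5 and that of gamma 17.6, and with every annotated TSS alpha had 21.4 and gamma 19.7. Within the gamma cluster, 10 of 12 PCDHGA genes and 6 of 7 PCDHGB genes were open, with median fold enrichments of 17.0 and 16.3 for PCDHGA and 21.97 and 23.7 for PCDHGB.

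The alpha genes divided by position. PCDHA1, PCDHA2, PCDHA3, PCDHA7 and PCDHA9 had no peak within 1 kb in either replicate, and the nearest peak was at least 5804 bp away. Peaks over the TSSs of PCDHA6 and PCDHA8 were called in replicate 2 only, each with a fold enrichment of 5.31 and a height of 23 stacked reads (exact Poisson 95% interval 14.6 to 34.5, counting error only). So of the first 9 genes of the cluster, PCDHA4 and PCDHA5 were the 2 with a peak in both replicates, whereas all 6 from PCDHA10 to PCDHAC2 had one. The peaks of PCDHA5 and PCDHA13 lay inside the variable exon and not over the TSS. The largest alpha peak was that of PCDHAC1, the first C-type gene, at 76.2 and 65.0 (70.6 ± 7.88, SD, n = 2; heights 330 and 293), and it spanned -381 to 978 bp from the TSS in replicate 1. PCDHA12 followed with 31.5 and 31.8, then PCDHA10 with 27.8 and 26.8, and PCDHA4 with 15.2 and 15.9. PCDHAC2, the second C-type gene, had 15.6 and 13.3 at its canonical TSS, which was about the level of PCDHA4. A stronger region, with 38.2 and 34.3, had its midpoint 10 bp from another annotated PCDHAC2 TSS. With every annotated TSS this region stood for PCDHAC2 in the alpha median, which was then 21.4.

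In the beta cluster the exceptions were the genes at its ends. PCDHB1, the first gene, and PCDHB15, the last, had no peak in either replicate, with the nearest peak 9880 and 21905 bp away in replicate 1, and every gene between them was open. PCDHB8 had the strongest peak, at 58.4 and 63.9 (61.2 ± 3.86; heights 253 and 288), followed by its neighbor PCDHB16 with 53.4 and 46.0, PCDHB13 with 40.7 and 42.9, and PCDHB2 with 33.8 and 37.4. The values of PCDHB8 and PCDHB16 did not overlap between the genes. The weakest open beta genes were PCDHB5 with 5.52 and 5.97 and PCDHB7 with 7.82 and 5.97. Of the 50-base words between -250 and 99 bp of their TSSs, PCDHB8 shared 18.6% and PCDHB13 32.2% with other places in the interval. The paper lists reads longer than these words, so a shared word need not make a read impossible to place. Copies elsewhere in the genome were not sought. How reads from the copies were placed was not known, so the values of these 2 genes are less certain.

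The gamma cluster held the strongest and some of the weakest peaks of all members. PCDHGC3, the first gamma C-type gene, reached 176.9 and 162.3 (169.6 ± 10.3; heights 768 and 733), at the 98.1th percentile of the TSS peaks of all protein-coding genes. The other 2 gamma C-type genes had no peak in both replicates: a peak of 4.64 lay at -890 to -709 bp from the PCDHGC4 TSS in replicate 2 only, and a peak of 3.45 at 63 to 212 bp from the PCDHGC5 TSS in replicate 1 only. Measured from the PCDHA1 TSS, PCDHGC3 starts at 689.8 kb and these genes at 698.9 and 702.9 kb. After PCDHGC3 came PCDHGB3 with 39.8 and 40.5, PCDHGB1 with 31.3 and 34.1, and PCDHGA12 with 31.1 and 32.5, the last 2 of which overlapped in their values. PCDHGA4 and PCDHGB6 had no peak in either replicate, and PCDHGA3 had a peak of 4.42 in replicate 2 only. PCDHGB5, with 4.37 and 7.30, showed the largest log2 ratio between replicates in size, and PCDHGB4 and PCDHGB5 shared 11.3% of their 50-base words with other places in the interval.

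**Figure D2:**
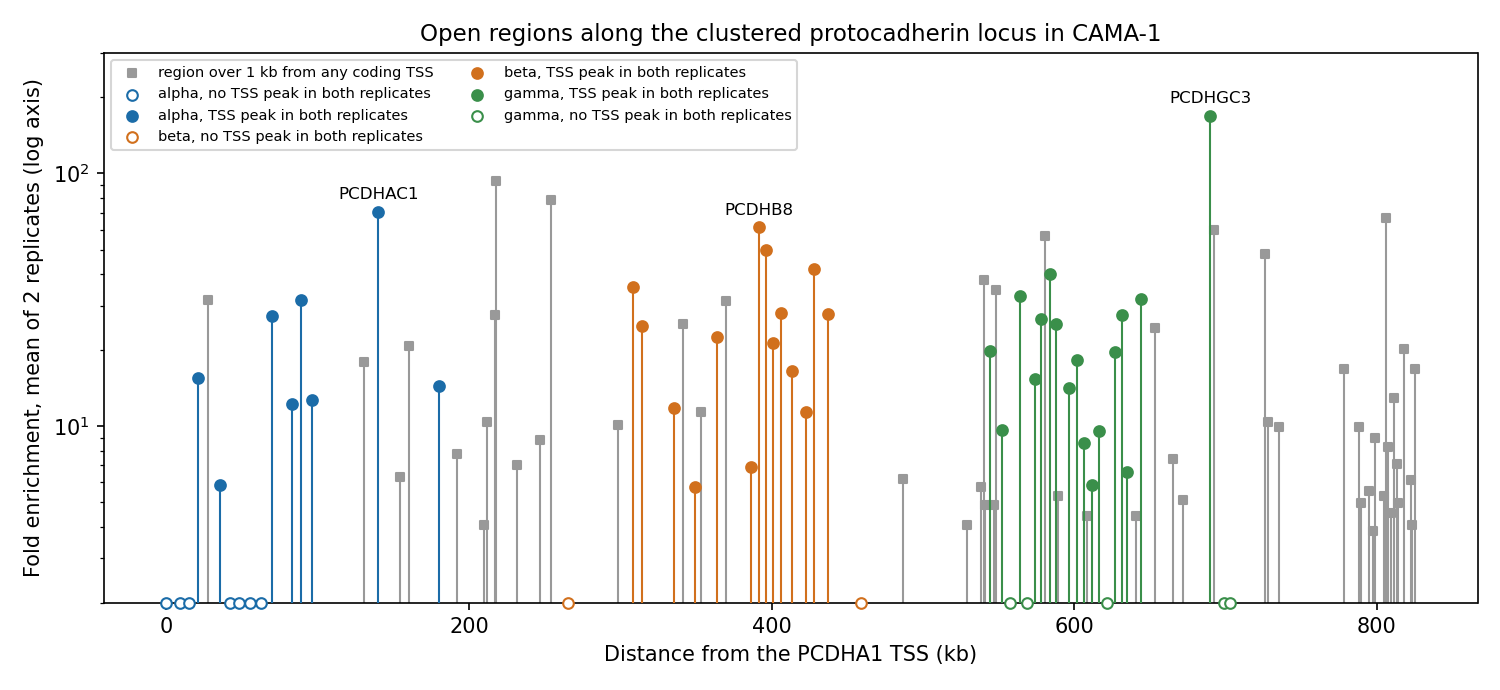
Distance from the PCDHA1 TSS in kb against the mean fold enrichment over both replicates (log axis); filled circles are open genes, empty circles on the axis are genes that were not called open, and grey squares are regions of both replicates more than 1 kb from any coding TSS. PCDHGC3, at 169.6, is the tallest point, most empty circles of the alpha cluster lie at its start, and the beta cluster has an empty circle at each end.

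The peaks sat on the promoters. In 36 of the 39 members, the strongest peak touched a window of 151 bp around the TSS, which ended 25 bp after it, in both replicates, and the midpoints of these peaks had a median of 3.5 bp after the TSS in replicate 1 and 11 bp before it (-11) in replicate 2. Counting any peak over this window in both replicates, 37 members were open, which is 69.8% beside 66.4% of all protein-coding genes, made up of 6 alpha, 14 beta and 17 gamma genes. At the TSS itself, 87.5% of beta, 77.3% of gamma and 40% of alpha genes lay under a peak in both replicates, against 65.0% of all genes. At -300 bp the values were 0%, 4.55% and 6.67%, against 52.8%. Upstream of the TSS the members' peaks thus ended sooner than those of many genes.

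The exceptions were 3 genes whose strongest peak lay inside the variable exon. The peak of PCDHA5 ran from 446 to 674 bp after the TSS in replicate 1, at 5.75 and 5.97, and that of PCDHA13 from 422 to 743 bp, at 12.9 and 12.4. PCDHGA6 had a peak at 757 to 1091 bp with 27.2 and 23.7, and a weaker one over its TSS with 10.8 and 11.1. At 600 bp after the TSS, 33.3% of alpha genes lay under a peak, which is 5 of 15 and near the 30.8% of all genes, beside 0% of beta and 4.55% of gamma genes. The alpha share was 26.7%, or 4 of 15 genes, at 250 bp.

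**Figure D3:**
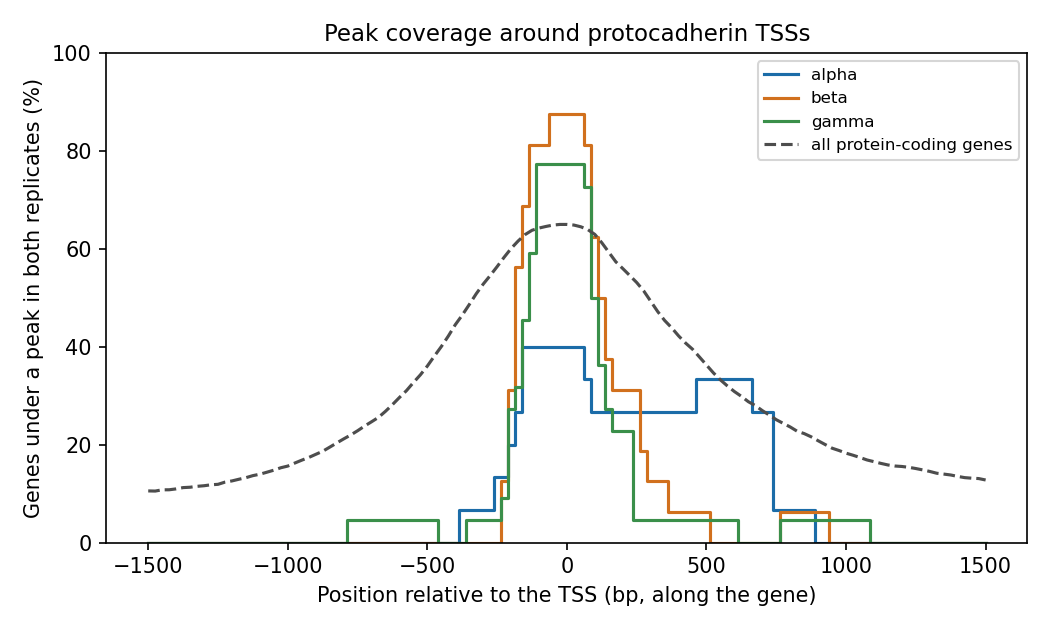
Percentage of genes under a peak in both replicates at each distance from the TSS in bp, for alpha, beta, gamma and all protein-coding genes. Beta and gamma genes rise to 87.5% and 77.3% at the TSS and fall off on both sides, to 31.3% and 4.55% at 250 bp, while alpha genes go from 26.7% at 250 bp to 33.3% at 600 bp, a gain of 1 gene, where all genes have 30.8%.

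Letters of the CTCF consensus occur in this stretch of the alpha genes. The letters AGNNGGCGC, where N is any base, were searched on both strands from 1 to 1000 bp after the TSS. They occurred in 11 of 15 alpha genes (73.3%), 1 of 16 beta genes and 2 of 22 gamma genes, against 25.7% of all protein-coding genes. In 9 of the 13 PCDHA genes they began between 575 and 626 bp after the TSS, always on the gene strand and within the variable exon. They are shown for 4 genes with a peak over the letters in both replicates (PCDHA5, PCDHA10, PCDHA12 and PCDHA13) and 2 with no peak over them (PCDHA3 and PCDHA7), with the match in capitals, from the plus strand of hg38 at chr5:140822224-140822252, chr5:140856497-140856525, chr5:140875924-140875952, chr5:140882720-140882748, chr5:140801649-140801677 and chr5:140834835-140834863.
PCDHA5: ggtttccgctAGAGGGCGCgtcggatttg
PCDHA10: gatttccactAGAAGGCGCatctgatgcg
PCDHA12: attttcctctAGAGGGCGCttctgatgcg
PCDHA13: gatttccactAGATGGCGCatccgatgca
PCDHA3: ggttttcgctAGAGGGCGCatcagatgca
PCDHA7: ggtttccactAGAGGGCGCgtccgatgca

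Among these genes the same letters were found both under and outside peaks. A peak covered them in both replicates in PCDHA5, PCDHA10, PCDHA12, PCDHA13, PCDHAC1 and PCDHAC2. It did so in replicate 1 only in PCDHA4, at 5.06, and in neither replicate in PCDHA3, PCDHA7, PCDHA8 and PCDHA9. For PCDHAC2 this was the match at 184 bp, and a further match at 823 bp, on the other strand, had no peak over it. In PCDHA10 and PCDHA12 a single peak ran from before the TSS to beyond the letters, as far as 871 and 746 bp in replicate 1. In PCDHA5 and PCDHA13 the peak lay over the letters and the promoter had none. The midpoints of these regions also lay near annotated starts of long noncoding RNAs. They were -11 bp from that of ENSG00000279726 in PCDHA5 and 64.5 bp from that of ENSG00000278901 in PCDHA13. PCDHA4 showed the converse, with its stronger peak, 15.2 and 15.9, over the promoter. A match of letters is a description of the sequence, and binding of CTCF was not measured.

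The letters of the CGCT box were found in most members, open or not. Members not called open include those with a peak in 1 replicate. On the gene strand from -100 to -1 bp, CGCT occurred in 48 of 53 members (90.6%), against 36.1% of all protein-coding promoters, with 14 of 15 alpha, 14 of 16 beta and 20 of 22 gamma genes. On both strands from -250 to -1 bp it occurred in 50 members (94.3%) against 77.2%. The longer GGCGCT, which contains CGCT and overlaps the end of AGNNGGCGC, was found in 13 of 16 beta genes, 8 of 22 gamma genes and no alpha gene on both strands of that window, against 23.8% of all promoters. AGNNGGCGC occurred there in 2 members and 11.3% of promoters, and TATAAA in 11 members (20.8%) and 9.34%.

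For each gene, the box was taken as the CGCT between -250 and 99 bp whose surrounding 30 bases were most like those of the same cluster, so that some likeness follows from the choice. No lowest likeness was required, so a box in this sense need not be the conserved element. The share of all genes with a CGCT in this window was not computed. By this rule a box was found in 14 alpha, 16 beta and 21 gamma genes. Only PCDHA9 and PCDHGC5 had no CGCT in the searched window. The boxes lay at a median of -51.5 bp in alpha, -63 bp in beta and -57 bp in gamma genes. Of the members with a peak in both replicates, the strongest peak covered the box in 6 of 8 alpha, 14 of 14 beta and 16 of 17 gamma genes, and the exceptions were the 3 genes with their strongest peak inside the exon. The mean identity of a box to the others of its cluster had a median of 61.8% in open alpha genes and 70.0% in those not called open, 71.2% and 57.8% in beta genes, where the second value rests on 2 genes, and 70.3% and 66.4% in gamma genes. Boxes least like their cluster belonged to PCDHB6 (28.9%), PCDHGB7 (30%), PCDHAC1 (39.5%), PCDHB1 (42.2%) and PCDHAC2 (48.7%), of which PCDHB1 alone had no peak.

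Each cluster had a characteristic word of 8 letters in its promoters. ATGTCGCT occurred in 10 of 15 alpha genes, 4 of them among the 8 open ones, and in 0.1498% of all promoters on the same strand. GTGGCGCT occurred in 13 of 16 beta genes, 12 of them among the 14 open ones, and in 0.744% of promoters. GCCGCTGT occurred in 11 of 22 gamma genes, 9 of them among the 17 open ones, and in 0.784%. These words were chosen as the most common in the members, and their counts are a description.

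**Figure D4:**
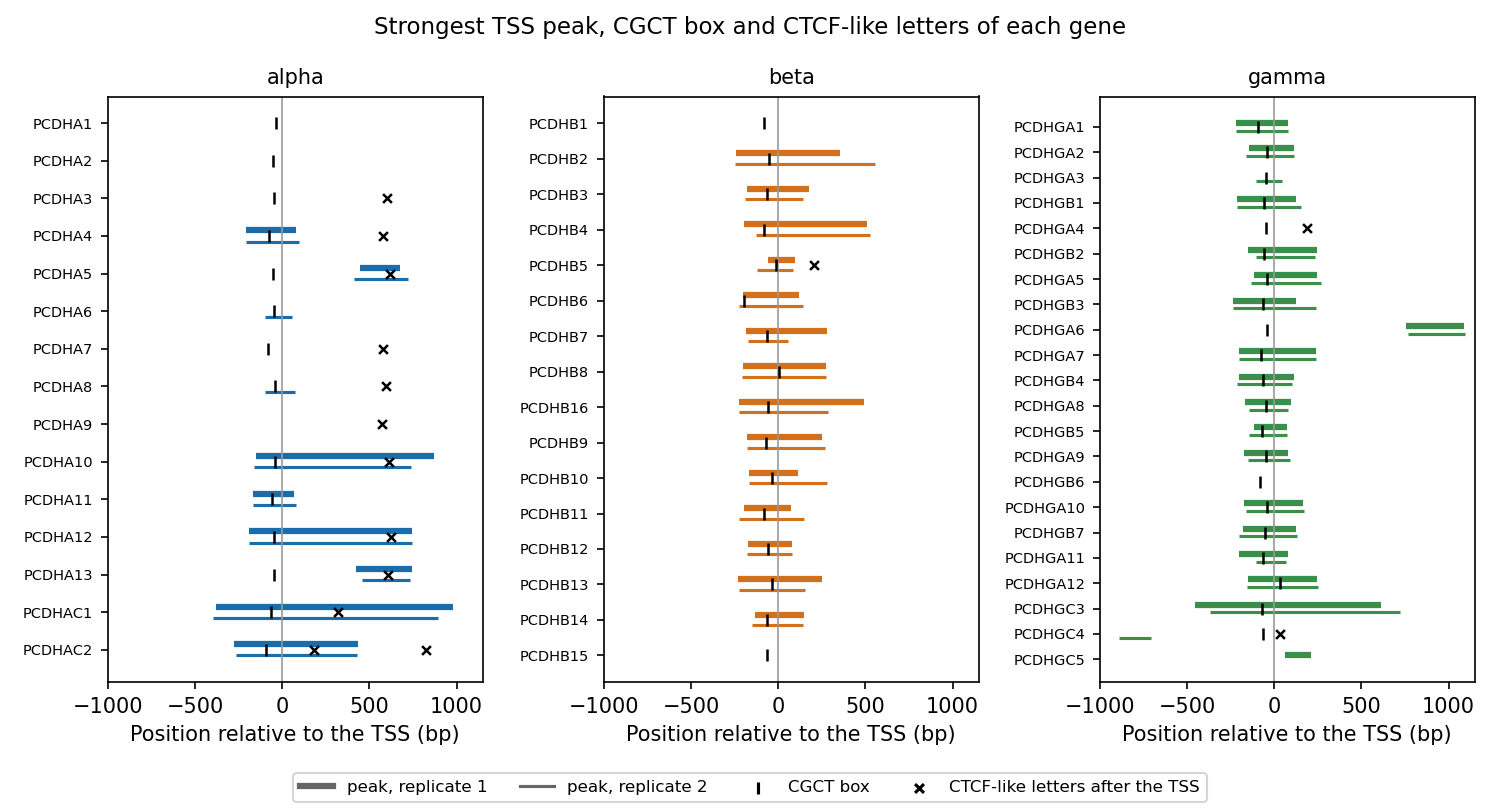
Span of the strongest TSS peak of each gene in bp from the TSS, thick for replicate 1 and thin for replicate 2, with the CGCT box as a vertical tick and the letters AGNNGGCGC as a cross. Peaks of beta and gamma genes lie over the box except in PCDHGA6 and PCDHGC4, and PCDHGC5 has a peak but no box. In alpha, 2 peaks lie over the cross at 606 and 621 bp only. Those of PCDHA10, PCDHA12 and PCDHAC1 span both, as does that of PCDHAC2 for its cross at 184 bp.

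CpG content is given for open members and those not called open. The observed over expected CpG ratio within 500 bp of the TSS had a median of 0.761 and 0.765 in alpha genes, 0.471 and 0.533 in beta genes, and 0.665 in both sets of gamma genes, against 0.725 over all protein-coding genes. Among genes with a ratio from 0.6 to 0.8, 23 of 29 members (79.3%) had a TSS peak in both replicates, beside 86.6% of the other protein-coding genes, with median mean folds of 18.2 and 55.3. From 0.4 to 0.6, 12 of 15 members (80%) had one, beside 57.4% of the other genes, with 22.4 and 39.4. From 0.8 upwards, 2 of 6 members (33.3%) had one, PCDHA10 and PCDHGA11, beside 92.1% of the other genes, with 16.9 and 54.0. All 6 of these members were alpha or gamma genes. Below these ranges lay 3 members: both members from 0.2 to 0.4 had a peak, with a median of 24.7 beside 17.3 for the other genes, of which 41.6% had one, and the member under 0.2, PCDHGC5, was not open, beside 30.6% of the other genes. The members' median was thus the lower one in the 3 upper ranges and the higher one, over 2 genes, from 0.2 to 0.4. The median GC content of the same windows was 44.4% in the members and 61.3% over all genes.

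Open regions were densest after the gamma cluster. Regions called in both replicates numbered 8.40 per 100 kb in the alpha cluster, 9.60 in the beta cluster and 15.9 in the gamma cluster, against 7.33 over the genome, and 23 in the 100 kb after the gamma cluster, which overlap DIAPH1, a formin that assembles actin. More than 1 kb from any coding TSS lay 9 regions in the alpha cluster, 3 between alpha and beta, 4 in the beta cluster, 5 between beta and gamma, 11 in the gamma cluster and 19 in the 100 kb after it. The beta cluster, with the largest share of open promoters, had 2.02 such regions per 100 kb, the lowest density of the 6 stretches.

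Several of these regions exceeded the promoters around them. The strongest, at chr5:141003876-141004746, lay in an alpha intron 37.8 kb after the PCDHAC2 TSS and had a fold enrichment of 100.8 and 86.0 (heights 437 and 388), more than any alpha promoter in the same replicate. A region at chr5:141039651-141041494, between the alpha and beta clusters, had 75.5 and 81.6 and was 1844 bp wide, the widest region listed in these stretches. Its midpoint lay 10.8 kb before PCDHB1, which itself had no peak, and 333 bp (-333) from the annotated start of a long noncoding RNA, ENSG00000288892. Both of these regions lie between the TSSs of PCDHAC2 and PCDHB2, the nearest open members on either side. In the beta cluster the strongest region away from coding TSSs, at chr5:141155525-141155945, had 33.4 and 29.2.

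In the gamma cluster, a region at chr5:141366348-141366894 near the end of the PCDHGA5 variable exon had 56.4 and 57.1, above the PCDHGA5 promoter at 29.2 and 23.9. A region at chr5:141477818-141478725 in the PCDHGC3 variable exon had 60.5 and 59.5. The last gamma constant exon carried a region at chr5:141511825-141512804 with 50.6 and 45.6. After the cluster, a region in a DIAPH1 intron at chr5:141591891-141592791 had 69.5 and 63.9. The enhancers described for these clusters have names but no coordinates in the sources used here, so no region is given such a name.

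Full matches of the CTCF core consensus were found in 4 of the regions away from coding TSSs, on either strand. The core searched was CCA, any base, C or T, AG, A or G, G or T, and GGC. It was searched only within regions called in both replicates. They are shown because CTCF binding is known to shape this locus, with the match in capitals and read 5′ to 3′ on its own strand. The region between alpha and beta held 2 on the minus strand (chr5:141041363-141041392 and chr5:141040354-141040383), the region of the gamma constant exon 1 on the minus strand (chr5:141512494-141512523), and the DIAPH1 intron 1 on the plus strand (chr5:141592195-141592224).
First match between alpha and beta: cctcatctgCCACCAGGTGGCaggtggatc
Second match between alpha and beta: gatctttaaCCAGCAGAGGGCgagtcgact
Gamma constant exon: aggctatggCCACTAGGGGGCgcactgggg
DIAPH1 intron: tgagctagtCCAACAGAGGGCagcaacaac

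The fourth such region, at chr5:141564143-141564728 in DIAPH1-AS1, had 20.2 and 13.5. Of the regions called in both replicates over the genome, 3.56% held the core, and among regions within 10% of their width the share was 4.09% for the region between alpha and beta, 3.69% for the gamma constant exon and 3.92% for the DIAPH1 intron. Near coding TSSs, the peak of PCDHA13 in the alpha cluster held the core, as did a DIAPH1 region at chr5:141524606-141525484 with 110.2 and 99.5. The core also occurred outside such regions in alpha variable exons. PCDHA4 held it with a peak over it in replicate 1 only, and PCDHA7 and PCDHA9 held it with no peak over it. Among all regions of both replicates, 1 of 19 in alpha, 1 of 3 between alpha and beta and 0 of 19 in beta held it. So did 0 of 7 between beta and gamma, 1 of 29 in gamma and 3 of 23 in the 100 kb after it.

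The genes around the clusters were open more strongly than most members. ZMAT2, a splicing factor before the alpha cluster, had 86.1 and 84.5, and TAF7, a subunit of the general transcription factor TFIID between beta and gamma, had 36.8 and 36.0. SLC25A2, a mitochondrial ornithine transporter in the same gap, had no peak in either replicate. After the gamma cluster, DIAPH1 had 118.7 and 117.4, and the histone deacetylase gene HDAC3 and RELL2 shared a peak of 93.0 and 86.9. The 12 non-clustered protocadherins are single genes of the same superfamily outside the clusters, of which PCDH1 and PCDH12 lie on chromosome 5 beyond the gamma cluster. Of these 12, 9 had a TSS peak in both replicates with a median fold enrichment of 22.02, and PCDH8, PCDH10 and PCDH18 had none. All 12 regulators of the clusters that were listed had a TSS peak in both replicates, with a median fold enrichment of 37.9. CTCF had the highest values among them, 143.6 and 137.1. Over all protein-coding genes the share with such a peak was 73.5% and the median of the mean folds 50.0.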

How the data were processed

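ATAC-seq of CAMA-1 cells in 2 biological replicates was analysed from the deposited peak lists. Per the submitters' processing notes, the authors used Trim Galore 0.6.5, Bowtie2 2.3.5.1, MACS2 2.2.6 and hg38. Peaks were called per replicate, without pooling. MACS2 settings and the handling of duplicates are not given in the sources used here, and neither are excluded regions. Each peak carries 4 values deposited by the authors, namely a score, its fold over background (a ratio), a −log10 p-value and a −log10 q-value. Summits and read counts were not used. The lowest −log10 q was 2.24 and 2.07. All deposited fold enrichments were whole multiples of 1 step per list, 0.230 and 0.221, to within 8.13e-05 of a step, which gave background and heights.

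The TSS was that of the Ensembl canonical transcript in GENCODE release 44, and peaks were assigned in Python 3.11.15 with numpy 2.4.6, scipy 1.17.1 and matplotlib 3.10.9. Overlap meant at least 1 bp. Sequences were read from the hg38 reference. Members and lists were chosen with earlier results of these data known. Genes named with values by rule are the C-type genes, the 4 strongest of each cluster, members with a peak in 1 or no replicate, the cluster neighbours, and related genes without a peak; PCDHA5, PCDHA13, PCDHGA2, PCDHGA5, PCDHGA6, PCDHGB5, PCDHB5, PCDHB7, CTCF and the boxes and regions were singled out after their values were seen. Shares carry Wilson intervals and heights exact Poisson intervals at 95%, which cover counting error only. The functions were tested on simulated data. Alternatives were other TSSs, distances, thresholds and overlaps, and the omission of each replicate. Copy number and expression were not used here.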

Additional observations from a re-analysis of the deposited data

How the results depend on the processing

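Of 66 alternative values computed for 10 results, 53 moved by less than the spread between replicates or, for counts, by at most 1.5 times. With the 50000 strongest peaks of each replicate, 15 members (28.3%), 3 alpha, 7 beta and 5 gamma genes had a peak at the TSS in both, beside 55.4% of all protein-coding genes. The alternative keeps only the stronger peaks. The median fold enrichment of alpha genes became 21.4 with every annotated TSS and 21.5 with peaks within 100 bp, and ranged from 12.8 to 15.4 when a replicate was left out. With every annotated TSS and with peaks within 100 bp, alpha exceeded gamma, whose median became 17.6 with peaks within 100 bp, stayed at 19.7 with every annotated TSS, became 20.02 with a −log10 q of at least 10 and ranged from 18.2 to 18.6 when a replicate was left out. With that q, regions away from coding TSSs numbered 3 between beta and gamma and 12 in the 100 kb after gamma. No paired analysis was possible because the 2 samples form 1 group. With no read counts, a missing peak sets no limit on accessibility.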

Other observations

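The clusters also hold 6 annotated protocadherin pseudogenes, which resemble the genes but are not annotated to encode a protein. PCDHB17P had a peak of 33.4 and 29.2 just before its TSS (-471 to -51 bp in replicate 1), above the median of the beta genes, and this was the strongest region of the beta cluster away from coding TSSs. PCDHGB9P had 22.1 and 27.0 (-408 to -22 bp), also above the gamma median in both replicates. PCDHGB8P had a weak peak of 4.602 and 4.201 at 537 to 813 bp. PCDHA14, PCDHB18P and PCDHB19P had none in either replicate.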
